A study of Mus musculus with 24 samples.

Results

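The transcripts of the mitochondrial genome were taken as every gene in the deposited count files whose mouse symbol starts with mt-. They number 37 of 52350 genes, and all 37 are listed in every file: 13 protein-coding genes, 2 ribosomal RNAs (rRNAs) and 22 transfer RNAs (tRNAs). RNA-seq of poly-A selected RNA had been made from hearts of 24 wild-type male C57Bl/6 mice aged 12 weeks, kept in a 12:12 light:dark cycle. ZT counts hours from lights on, so ZT0 starts the light phase and ZT12 the dark phase. There were 4 groups of 6 mice: ZT0-SED and ZT12-SED stayed sedentary, while ZT0-EX and ZT12-EX ran once, each at the time in its name. The run lasted 60 min on a level treadmill at 10 m/min, after habituation to the treadmill. The labels do not say how long after the run the heart was collected. Replicates 1 to 3 of each group were sequenced on flow cell 1 and replicates 4 to 6 on flow cell 2.

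The mitochondrial genome is a small circle of DNA present in many copies per cell, and heart muscle is among the tissues richest in it. Both of its strands are read as long precursors, and the tRNAs between the genes are cut out to release messenger RNAs and rRNAs. The messenger RNAs encode subunits of respiratory complexes I (the Nd genes), III (mt-Cytb) and IV (the Co genes) and of the ATP synthase (the Atp genes). All other subunits, and all factors that copy, read and process this genome, come from nuclear genes. Mitochondrial messenger RNAs carry short poly-A tails, whereas mature tRNAs carry none, so a poly-A library is a poor measure of tRNAs. In the annotation, 28 members lie on 1 strand, and mt-Nd6 and 8 tRNAs lie on the other.

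Several members share their sequence with nuclear gene models, which bears on what their counts measure. Of the 37 members, 10 had at least 1 stretch of 50 bases that also stands in a nuclear gene model (GENCODE M21, GRCm38, matched by gene ID). The share of such stretches was 100% for mt-Co2, 99.9% for mt-Co3, 99.5% for mt-Atp6, 98.8% for mt-Nd4l and 98.0% for mt-Nd3. It was 62.2% for mt-Nd4, 51.1% for mt-Co1, 8.19% for mt-Nd2, 7.61% for mt-Nd5 and 1.04% for mt-Rnr2, and 0 for the other 27. On nuclear chromosome 1, 7 pseudogene models that hold these stretches stand side by side with no other model between them, in the order Gm28439, Gm10222, Gm28438, Gm28437, Gm10925, Gm28661 and Gm29216. The first 60 bases of mt-Co3, the member on which most results turn, and of its copy Gm28437 are shown because no base differs, here or over the 783 aligned bases.
mt-Co3: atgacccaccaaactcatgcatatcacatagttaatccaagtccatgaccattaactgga
Gm28437: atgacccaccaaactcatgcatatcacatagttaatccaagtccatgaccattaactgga
The copy of mt-Nd3, Gm28438, differs from it by 1 substitution in 345 aligned bases, T3C, counted from the first base of mt-Nd3 and shown in capitals.
mt-Nd3: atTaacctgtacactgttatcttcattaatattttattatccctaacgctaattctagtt
Gm28438: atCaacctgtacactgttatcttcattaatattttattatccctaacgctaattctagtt

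Neighbouring members also overlap each other, so that reads over the shared bases belong to both. The last 43 bases of mt-Atp8 are the first 43 of mt-Atp6, in capitals here because they are a sizeable part of the 204 bases of mt-Atp8.
mt-Atp8: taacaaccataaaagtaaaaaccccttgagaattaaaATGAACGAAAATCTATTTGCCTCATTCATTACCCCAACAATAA
mt-Atp6: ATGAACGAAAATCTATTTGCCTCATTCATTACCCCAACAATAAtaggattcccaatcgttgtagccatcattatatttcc
Between mt-Nd4l and mt-Nd4 the overlap is 7 bases long. How the authors counted reads that fit several places or genes, and whether strand was used, is not given in the sources. Without strand, reads of mt-Nd6 and of any RNA that runs across it on the other strand cannot be told apart.

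Nearly all of the mitochondrial counts came from a few messenger RNAs. Summed over the 24 libraries, the 13 protein-coding members held 92.7% of the mitochondrial counts, the 2 rRNAs 7.10% and the 22 tRNAs 0.154%. The median share of the mitochondrial counts was 39.8% for mt-Co1, the catalytic subunit of complex IV, and 17.0% for mt-Cytb, the cytochrome b of complex III. It was 13.2% for mt-Nd1, 7.84% for mt-Nd2, 6.75% for mt-Nd5 and 5.91% for mt-Nd4, all subunits of complex I. The other 7 messenger RNAs had median shares from 0.0112% (mt-Nd4l) to 0.599% (mt-Co2).

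Per length, the 5 members that share 98.0% or more of their sequence with nuclear models were low. Counts per kb, as a percentage of those of mt-Co1 in the same library, had medians of 56.1% for mt-Cytb, 53.8% for mt-Nd1, 29.7% for mt-Nd2, 16.9% for mt-Nd4 and 13.9% for mt-Nd5. The medians were 3.30% for mt-Co2, 2.90% for mt-Co3, 1.27% for mt-Atp6, 0.434% for mt-Nd3 and 0.150% for mt-Nd4l. Shared sequence did not mark every low member: mt-Nd6 had 1.74% and mt-Atp8 0.505%, with no stretch in a nuclear model. The nuclear copies took a median of 60.1% of the joint counts of mt-Nd3 and Gm28438, 55.0% for mt-Atp6 and Gm10925, and 47.6% for mt-Co3 and Gm28437. The median was 43.1% for mt-Nd4l and Gm10222, and 34.3% for mt-Co2 and Gm28661. For mt-Nd4 the share of Gm28439 was 0.765%, and for mt-Co1 that of Gm29216 was 0.900%.

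**Figure D1:**
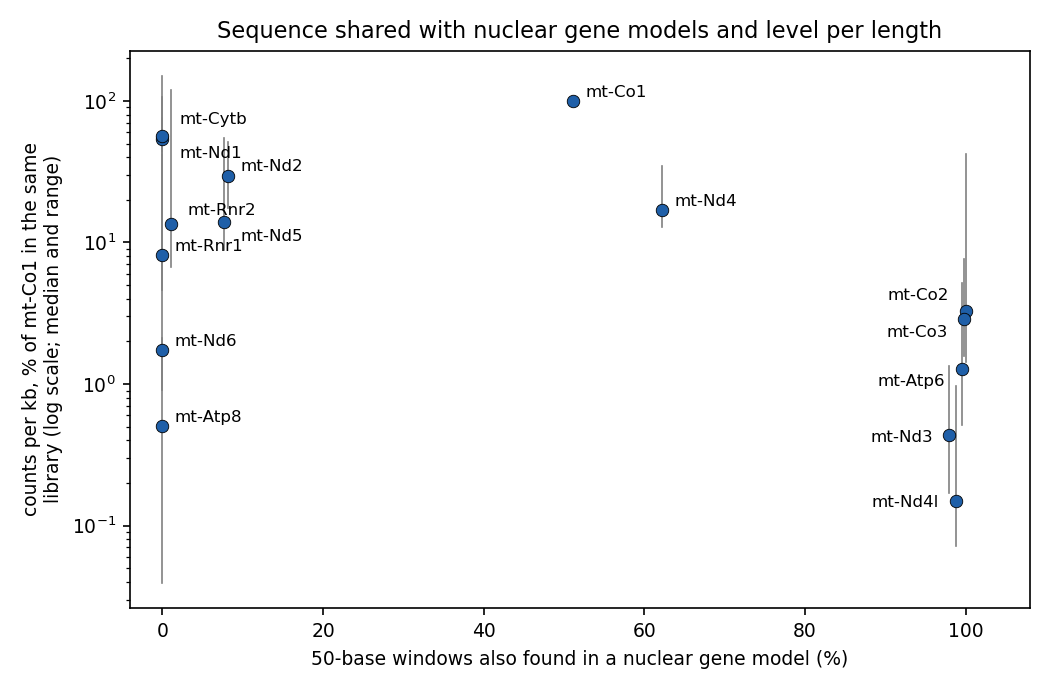
Counts per kb of each protein-coding and rRNA member as a percentage of those of mt-Co1 in the same library (log scale; points are medians over 24 libraries, lines the range), against the percentage of its 50-base stretches found in a nuclear gene model. The 5 members at 98.0% or more had medians of 3.30% or less, as did mt-Nd6 and mt-Atp8, which share none.

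Libraries held between 9697334 and 23067191 counts, and mitochondrial transcripts took from 2.70% to 55.1% of them. The flow cells differed: the mean share was 36.7% ± 9.02 on flow cell 1 (SD, n = 12) and lower in every group on flow cell 2. With this depth, no library's 95% Wilson interval was wider than 0.0628 percentage points, which covers counting error only. Heart markers were abundant throughout, and 8 cardiomyocyte markers summed to between 4.30% and 12.5% of the non-mitochondrial counts. Transcripts of 12 fast skeletal muscle markers summed to 0.129 to 0.475% of those counts in 6 libraries of flow cell 2 (ZT0-EX replicates 4, 5 and 6 and replicate 6 of each other group) and to 0.00847 to 0.0318% in the other 18; 5 of the 12 markers had no count in at least 1 library. In bulk tissue, fewer cells of a type and less RNA per cell cannot be told apart.

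Sedentary mice at ZT12 had shares above those of all other groups on flow cell 1, and overlapped with the other groups on flow cell 2. On flow cell 1 the ZT12-SED libraries 1, 2 and 3 had 53.4%, 55.1% and 40.7% mitochondrial counts, all above the 34.2%, 32.4% and 25.5% of ZT0-SED. The group means were 49.7% ± 7.87 and 30.7% ± 4.62 (SD, n = 3), a ratio of 1.62. In the same libraries the cardiomyocyte markers summed to 4.30%, 5.71% and 5.24% of the non-mitochondrial counts in ZT12-SED and to 7.40%, 7.29% and 7.83% in ZT0-SED. The fibroblast markers summed to 0.401%, 0.326% and 0.365%, against 0.185%, 0.272% and 0.182%. Neither list overlaps between the groups there, while the adipocyte, endothelial, red blood cell and fast skeletal muscle lists do. Among all genes tested, 24.3% lay above and 29.3% below without overlap on this flow cell. In the tests below, over both flow cells, 3 of the 5 fibroblast markers were positive and 2 negative. Their median log2 fold change was 0.11, and 1 was called lower. The part of these lists in the result was not tested. On flow cell 2 replicates 4, 5 and 6 had 20.7%, 14.7% and 17.6% in ZT12-SED and 8.35%, 18.8% and 23.7% in ZT0-SED. These overlapped, with means of 17.7% ± 3.04 and 17.0% ± 7.85 (SD, n = 3).

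After the run at ZT12 the share was lower on flow cell 1, and after the run at ZT0 it was not. The ZT12-EX libraries 1, 2 and 3 had 36.6%, 35.6% and 32.4%, all below ZT12-SED, with a mean of 34.9% ± 2.17 (SD, n = 3) and a ratio of means of 0.701. On flow cell 2 replicates 4, 5 and 6 of ZT12-EX had 2.70%, 16.1% and 20.6%, which overlap with ZT12-SED. Replicate 4 stands apart from every other library. In ZT0-EX, replicates 1 to 6 had 32.7%, 29.5%, 32.0%, 22.8%, 11.4% and 18.7%, and the ratio of the means to ZT0-SED was 1.02 for replicates 1 to 3 and 1.04 for replicates 4 to 6. Since the share is a sum over the members, no test was run on it.

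**Figure D2:**
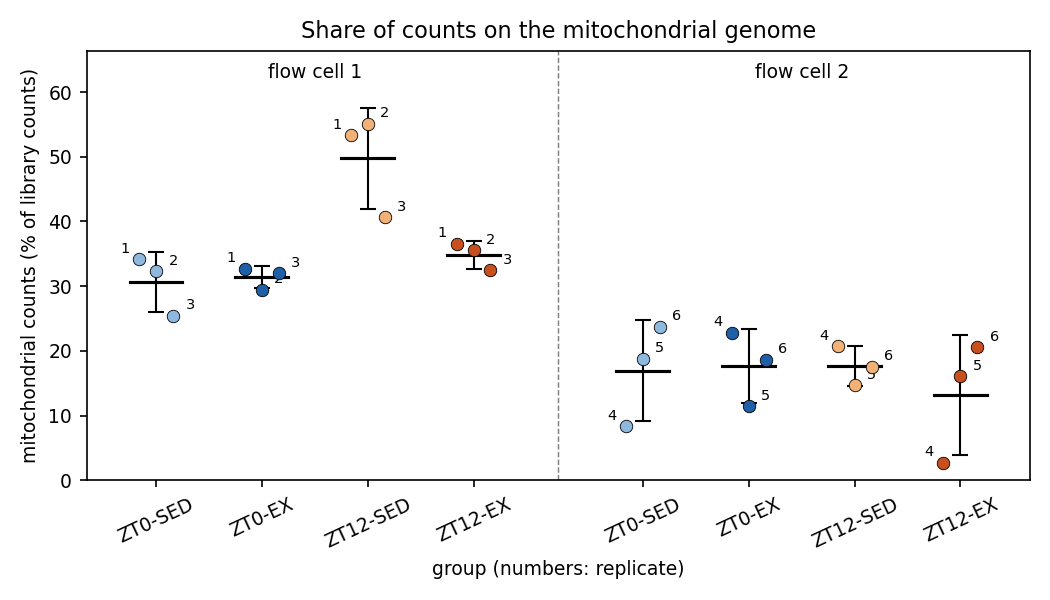
Mitochondrial counts as a percentage of all counts in each library (points, numbered by replicate), by group and flow cell, with the mean (line) and SD (bars, n = 3). ZT12-SED lies above the other groups on flow cell 1, from 40.7% to 55.1%, and ZT12-EX replicate 4 is lowest, at 2.70%.

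The make-up of the mitochondrial counts was described by its abundant members. In all 24 libraries mt-Cytb stayed between 15.5% and 20.4% of the mitochondrial counts, while the share itself ran from 2.70% to 55.1%. On flow cell 1, mt-Co1 had means of 38.9% ± 5.2 in ZT0-SED, 39.9% ± 0.31 in ZT0-EX, 40.1% ± 4.6 in ZT12-SED and 42.0% ± 0.85 in ZT12-EX (SD, n = 3). The flow cells differed in mt-Nd2, with group means from 8.43% to 10.0% on flow cell 1 and from 4.96% to 6.25% on flow cell 2. In ZT12-EX replicate 4 the rRNAs made up 31.5% of the mitochondrial counts, mt-Co1 16.7% and mt-Nd6 2.37%. In the other libraries of that group the highest rRNA share was 9.33%, the lowest mt-Co1 share 39.6% and the highest mt-Nd6 share 0.211%. ZT0-SED replicate 4, with the next lowest mitochondrial share at 8.35%, had 16.6% rRNA.

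**Figure D3:**
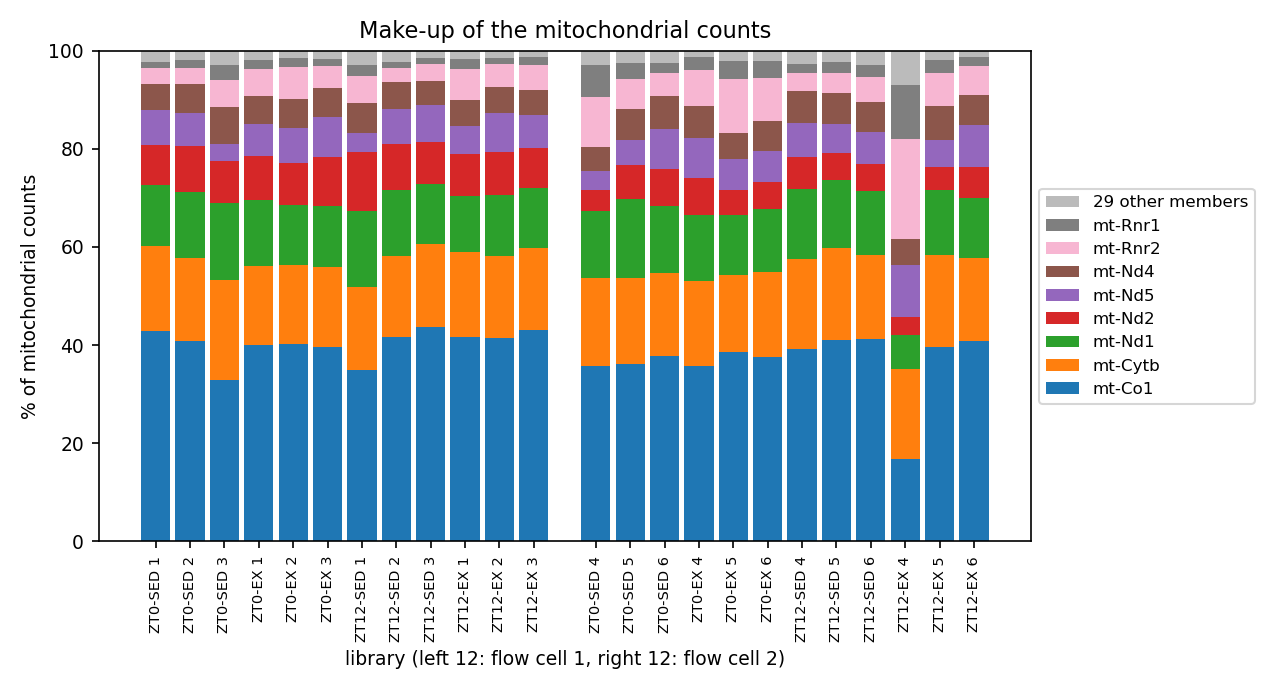
Percentage of the mitochondrial counts held by 8 members and by the other 29 together, for each library (flow cell 1 on the left, flow cell 2 on the right). In ZT12-EX replicate 4 rRNAs held 31.5% and mt-Co1 16.7%, and in ZT0-SED replicate 4 rRNAs held 16.6%.

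For the tests, edgeR's quasi-likelihood model was fitted to the 15294 genes that passed its expression filter, over all 24 libraries, with the flow cell as a term. Of the 37 members, 28 passed the filter: all 13 messenger RNAs, both rRNAs and 13 tRNAs. The 9 tRNAs left out had at most 130 counts in all libraries together. Levels below are CPM, counts set against a fixed library total after edgeR's TMM scaling, and calls have an adjusted p under 0.05 (Benjamini-Hochberg over all genes tested).

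Of 28 members, 1 was called for the run at ZT12, and it was lower: mt-Co3, which encodes a core subunit of complex IV. In the same comparison 45 genes, 0.294% of all tested, were called. In ZT12-SED, mt-Co3 had 8549, 8296, 1960, 1995, 1375 and 2320 CPM in replicates 1 to 6. In ZT12-EX it had 2423, 2023, 1440, 239, 1082 and 601 CPM. The groups do not overlap on flow cell 2, whereas on flow cell 1 ZT12-SED replicate 3 lies among the exercised libraries. The log2 fold change was -1.62 ± 0.34 (SE, edgeR quasi-likelihood test, adjusted p = 0.0321). The TMM factors of ZT12-SED replicates 1 and 2 were 0.538 and 0.635, and factors below 1 raise the CPM. With library totals without TMM the log2 fold change was -1.31 ± 0.33 (SE, edgeR, adjusted p = 0.163). The call was lost without any 1 of ZT12-SED replicates 1, 2 and 4 or ZT12-EX replicates 2, 3 and 6, with log2 fold changes from -1.63 to -1.48 and adjusted p-values up to 0.103. When the counts of its nuclear copies were added to those of mt-Co3, the log2 fold change was -1.51 ± 0.36 and the adjusted p 0.081 (edgeR).

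The other messenger RNAs pointed the same way after the run at ZT12 without passing the test. All 13 had negative log2 fold changes, from -1.93 ± 0.57 for mt-Atp6 to -0.43 ± 0.86 for mt-Atp8 (SE), with a median of -1.04 beside 0.06 for all genes tested. Single values were -1.65 ± 0.46 for mt-Nd3, -1.30 ± 0.38 for mt-Co2, -1.04 ± 0.40 for mt-Nd1, -0.82 ± 0.34 for mt-Cytb and -0.80 ± 0.40 for mt-Co1. DESeq2 called 4 members, all lower: mt-Co3, mt-Co2, mt-Atp6 and mt-Nd3, each of which shares 98.0% or more of its sequence with nuclear models. It called 1.51% of all genes in that comparison. On flow cell 1 all exercised libraries lay below all sedentary ones for 12 of 28 members, against 9.75% of all genes tested, and on flow cell 2 for 2 of 28 (mt-Co3 and mt-Atp6), against 3.86%. The median of the messenger RNAs was -0.15 without ZT12-SED replicates 1 and 2, which had the highest mitochondrial shares, and ZT12-EX replicate 4, which had the lowest.

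None of the 28 members was called for the run at ZT0, while 165 genes, 1.08% of all tested, were. DESeq2 and limma-voom also called none, and 4 members had an unadjusted edgeR p under 0.05. The messenger RNAs had a median log2 fold change of -0.10, with 5 positive and 8 negative. The range was from -1.44 ± 0.57 for mt-Atp6 (edgeR, adjusted p = 0.369) to 0.95 ± 0.45 for mt-Nd4l (adjusted p = 0.472). On flow cell 1, 3 of 28 members lay below in all exercised libraries (mt-Co3, mt-Nd6 and mt-Tq), against 9.81% of all genes. Of the 28, 2 lay above on flow cell 2 (mt-Rnr2 and mt-Td), against 11.1%, and 1 lay below (mt-Tc), against 8.4%.

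The exercise effects at the 2 times were also compared with each other. For this difference no gene of all tested was called by edgeR (0%), and none of the 28 members, of which 7 had an unadjusted p under 0.05. DESeq2 and limma-voom called no member either. All 13 messenger RNAs had a negative value, meaning a lower log2 fold change at ZT12 than at ZT0. Their median was -0.87, and the value was -1.14 ± 0.47 for mt-Co3 and -2.19 ± 0.63 for mt-Nd4l (SE, smallest adjusted p of any member 0.571, edgeR). Effects at ZT12 and ZT0 were thus not shown to differ.

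In sedentary mice 2 of 28 members were higher at ZT12 than at ZT0, in a comparison where 795 genes, 5.2% of all tested, were called. They were mt-Co3 and mt-Tt, the tRNA for threonine. In ZT0-SED, mt-Co3 had 1976, 2141, 2879, 633, 1047 and 607 CPM in replicates 1 to 6, against the ZT12-SED values above. On flow cell 2 all ZT12 libraries were higher, and on flow cell 1 replicates 1 and 2 were. The log2 fold change was 1.37 ± 0.33 (SE, adjusted p = 0.0197, edgeR), and 0.88 ± 0.36 with the nuclear copies added (adjusted p = 0.0998).

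For mt-Tt the difference was seen on flow cell 1 alone. It had 6.80, 5.72 and 14.0 CPM in ZT0-SED replicates 1 to 3 and 44.5, 38.2 and 44.1 in ZT12-SED, with no overlap. On flow cell 2 it had 4.10, 4.48 and 7.82 CPM at ZT0 and 6.81, 5.48 and 7.16 at ZT12, which overlap. The log2 fold change over both was 1.45 ± 0.38 (SE, adjusted p = 0.0315, edgeR), on 50 to 859 counts a library. Fitted on flow cell 1 alone it was 2.23 ± 0.31, and on the other 0.23 ± 0.46. Both calls were lost without ZT12-SED replicate 1 or 2 or ZT0-SED replicate 1, with log2 fold changes of 1.23, 1.25 and 1.33 for mt-Co3 and 1.29, 1.35 and 1.32 for mt-Tt. That of mt-Tt was also lost without ZT12-SED replicate 3 or ZT0-SED replicate 2 or 4, at 1.28, 1.29 and 1.41. Without ZT12-EX replicate 4 edgeR called 6 members in place of 2, and 21.2% of all genes. Without ZT0-SED replicate 6 it called 5 members and 18.2% of all genes.

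The other messenger RNAs had smaller positive values and did not pass the test. All 13 messenger RNAs had positive log2 fold changes for ZT12 against ZT0 in sedentary mice, with a median of 0.69 beside -0.01 for all genes tested. Values ran from 0.17 ± 0.57 for mt-Atp6 to the 1.37 of mt-Co3. They were 0.75 ± 0.40 for mt-Co1, 0.67 ± 0.34 for mt-Cytb, 0.68 ± 0.40 for mt-Nd1 and 1.32 ± 0.45 for mt-Nd4l (SE), none of them called by edgeR. DESeq2 called 6 members, all higher (mt-Co3, mt-Nd4l, mt-Tl1, mt-Tm, mt-Tt and mt-Tw), and 22.1% of all genes.

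Within flow cells this comparison gave different pictures. On flow cell 1 alone edgeR called 18 of 28 members, 17 of them higher and mt-Ts1 lower, in a fit that called 43.5% of all genes. All ZT12-SED libraries of flow cell 1 lay above ZT0-SED for 10 of 28 members, against 24.3% of all genes. On flow cell 2 alone no member was called by edgeR, the median of the messenger RNAs was 0.07, and 1 of 28 members (mt-Co3) lay above, against 6.6% of all genes. On the same flow cell 3 of 28, both rRNAs and mt-Nd6, lay below, against 6.39% of all genes: mt-Rnr1 had 3627, 2525 and 3370 CPM in ZT12-SED and 5035, 5423 and 4340 in ZT0-SED. Mitochondrial messenger RNAs have 31.9 to 41.1% GC, against a median of 49.6% for the genes tested, and with offsets fitted to GC content in each library the median log2 fold change was 0.08 and no member was called.

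In exercised mice, ZT12 and ZT0 did not differ detectably in any member. None of 28 was called by edgeR, DESeq2 or limma-voom, with 4 at an unadjusted edgeR p under 0.05, while 252 genes, 1.65% of all tested, were called. The median of the messenger RNAs was -0.22, with 3 positive and 10 negative, and mt-Co3 had 0.24 ± 0.33 (SE). The 2 exercised groups had overlapping mitochondrial shares on both flow cells.

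**Figure D4:**
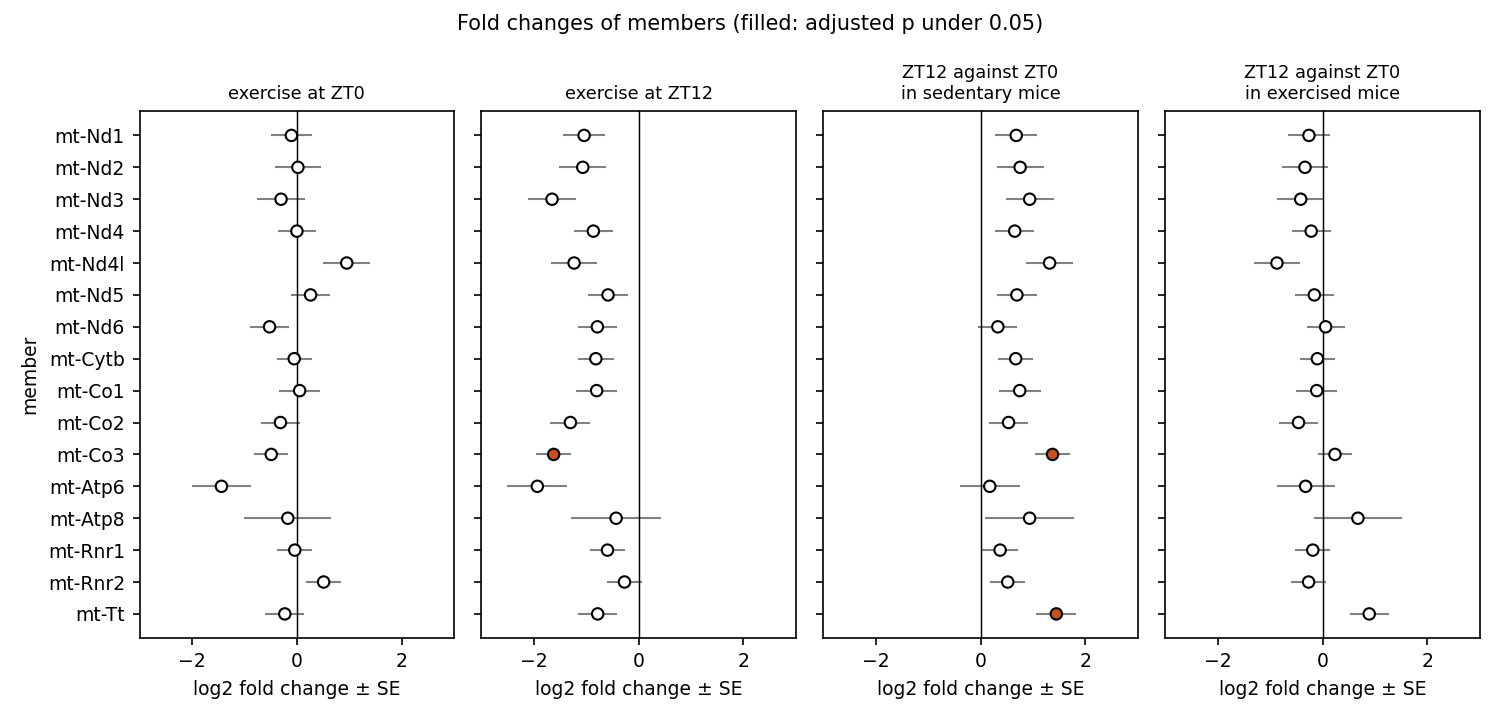
Log2 fold changes (points) with SE (bars) of the 13 messenger RNAs, both rRNAs and mt-Tt in 4 comparisons, from the edgeR fit over 24 libraries. Filled points, mt-Co3 after the run at ZT12 and mt-Co3 and mt-Tt for ZT12 against ZT0 in sedentary mice, have an adjusted p under 0.05.

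The rRNAs, which form the small (mt-Rnr1) and large (mt-Rnr2) subunit of the mitochondrial ribosome, stand on the same precursor with the tRNA mt-Tv between them. Over both flow cells their CPM did not differ past the test in any comparison. On flow cell 1 alone, in the fit that called 43.5% of all genes, both were called higher at ZT12 in sedentary mice, mt-Rnr1 by 1.13 ± 0.42 and mt-Rnr2 by 1.30 ± 0.40 on the log2 scale (SE, adjusted p = 0.0434 and 0.0181, edgeR). Fitted on flow cell 2 alone, the values were -0.65 ± 0.30 and -0.52 ± 0.31, not called. The log2 fold change of mt-Rnr2 was 0.51 ± 0.33 and that of mt-Rnr1 -0.04 ± 0.33 after the run at ZT0, and they were -0.27 ± 0.33 and -0.60 ± 0.34 after the run at ZT12 (SE). In ZT0-SED replicates 1 to 6, mt-Rnr2 had 11069, 10696, 15511, 8015, 10407 and 9225 CPM, and mt-Rnr1 had 4314, 4705, 8053, 5035, 5423 and 4340. In ZT0-EX, mt-Rnr2 had 18338, 18348, 14240, 15037, 10841 and 14722 CPM, and mt-Rnr1 had 6274, 5394, 4952, 5440, 3506 and 5490. Over both flow cells the libraries of the 2 groups overlap for both, while on flow cell 2 mt-Rnr2 lay higher in every ZT0-EX library.

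The ratio of the rRNAs was higher in exercised mice at ZT0, in every library of both flow cells. Counts of mt-Rnr2 per count of mt-Rnr1 were 2.57, 2.27, 1.93, 1.59, 1.92 and 2.13 in ZT0-SED replicates 1 to 6. They were 2.92, 3.40, 2.88, 2.76, 3.09 and 2.68 in ZT0-EX, with no overlap. At ZT12 the sedentary mice had 2.45, 2.33, 2.67, 1.94, 1.98 and 2.18, and the exercised mice 3.06, 3.38, 3.30, 1.87, 2.52 and 3.04. Here the exercised libraries were all higher on flow cell 1, and on flow cell 2 all but replicate 4, the library with the lowest mitochondrial share. This ratio was singled out after the values of 105 pairwise ratios of the 15 messenger RNAs and rRNAs had been seen, so no test is given. Over both flow cells 2 of the 105 (1.90%) separated the groups at ZT0, this one and mt-Rnr2 to mt-Nd6, and 1 (0.952%) did at ZT12, mt-Rnr2 to mt-Co3. Within flow cells at ZT0, 22 of the 105 (21.0%) separated the groups on flow cell 1 and 4 (3.81%) on flow cell 2. At ZT12, 28 of the 105 (26.7%) did so on flow cell 1 and 18 (17.1%) on flow cell 2. Skeletal muscle transcripts were raised in all flow cell 2 libraries of ZT0-EX, and their part in the result was not tested. The libraries were poly-A selected, so the rRNA counts measure captured RNA. The part of capture in the ratio was not tested.

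**Figure D5:**
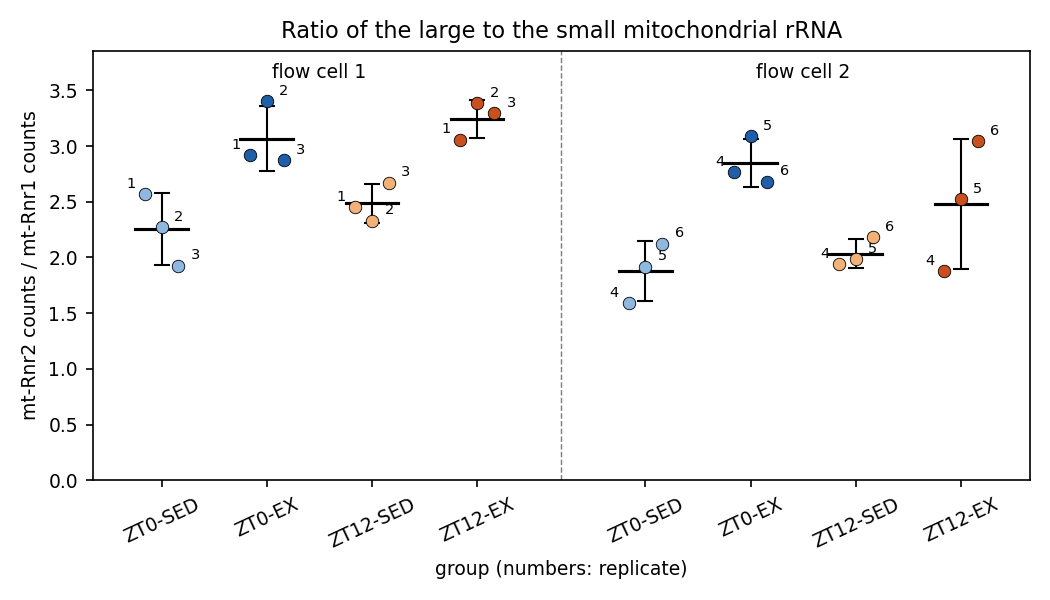
Counts of mt-Rnr2 divided by counts of mt-Rnr1 in each library (points, numbered by replicate), by group and flow cell, with the mean (line) and SD (bars, n = 3). The exercised libraries lie between 2.52 and 3.40 except ZT12-EX replicate 4, at 1.87, and the sedentary ones between 1.59 and 2.67.

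The tRNAs had few counts. Of the 22, mt-Ti (isoleucine) and mt-Tm (methionine) had the most, and mt-Tk had none in any library, which allows at most 0.00753 CPM over all libraries, before scaling. For mt-Ti the replicates 1 to 6 had 154, 176, 501, 65.9, 193 and 133 CPM in ZT0-SED and 213, 135, 152, 119, 106 and 130 in ZT0-EX. They had 2179, 442, 242, 100, 39.1 and 70.4 CPM in ZT12-SED and 232, 138, 142, 90.8, 27.0 and 65.4 in ZT12-EX. A single library, ZT12-SED replicate 1, was far above all others. For mt-Tm the values were 70.8, 85.6, 50.4, 17.4, 44.1 and 66.7 in ZT0-SED and 93.8, 70.3, 91.3, 69.7, 29.1 and 48.2 in ZT0-EX. They were 287, 247, 89.1, 66.3, 43.1 and 45.0 CPM in ZT12-SED and 73.8, 94.5, 72.3, 14.6, 40.6 and 70.9 in ZT12-EX. For both, the highest value was in ZT12-SED replicate 1, on flow cell 1. The next highest was 501 CPM in ZT0-SED for mt-Ti and 247 CPM in ZT12-SED for mt-Tm. Nuclear RNAs without a poly-A tail were nearly absent, 10 listed genes in the files giving 8.5e-05 to 0.000576% of the non-mitochondrial counts.

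The nuclear copies were described in 2 comparisons. Of 6 listed copies all had negative log2 fold changes after the run at ZT12, with a median of -1.14, and 1 was called: Gm28438, the copy of mt-Nd3, at -1.54 ± 0.33 (SE, adjusted p = 0.0398, edgeR). In sedentary mice all 6 were positive for ZT12 against ZT0, with a median of 0.74 and none called by edgeR, though 2 had an unadjusted p under 0.05. For the pair of mt-Co3 and Gm28437 the summed CPM on flow cell 2 were 3501, 1983 and 2795 in ZT12-SED and 1642, 2547 and 1043 in ZT0-SED, which overlap. The copy took 43.0%, 30.7% and 17.0% of that sum in ZT12-SED and 61.5%, 58.9% and 41.8% in ZT0-SED.

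Nuclear genes that serve the mitochondrial genome did not pass edgeR's test. Of 40 listed factors for its upkeep, transcription and RNA handling, 39 were tested and edgeR called none in any of the 5 comparisons. At an unadjusted p under 0.05 there were 1 for exercise at ZT0, 13 for exercise at ZT12, 0 for their difference, 15 for time in sedentary mice and 7 for time in exercised mice. These unadjusted counts are not set against the share of all genes. DESeq2 called 1 for exercise at ZT12, beside 1.51% of all genes, and 7 for time in sedentary mice (3 higher, 4 lower), beside 22.1%. It called 1 for time in exercised mice and none in the other comparisons, and limma-voom called none. The median log2 fold change after the run at ZT12 was -0.14, with 16 positive and 23 negative. Smallest p-values there belonged to Tefm, the mitochondrial transcription elongation factor, at -0.50 ± 0.14, Mterf2 at -0.81 ± 0.24, Tfam, which packages mitochondrial DNA and starts its transcription, at -0.54 ± 0.17, and Mterf3 at -0.74 ± 0.26. For the run at ZT0 the smallest belonged to Ppargc1a, a coactivator of mitochondrial biogenesis, at 0.86 ± 0.29 (SE, adjusted p = 0.242, edgeR).

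Nuclear-encoded subunits of complexes I, III, IV and V, the partners of the mitochondrial products, were not called by edgeR in any of the 5 comparisons, with 75 of 77 tested. Unadjusted p-values under 0.05 numbered 1 and 13 for exercise at ZT0 and ZT12, 20 for their difference, and 29 and 4 for time in sedentary and exercised mice. The share of all genes under that unadjusted cutoff is not given here. For time in sedentary mice DESeq2 called 23 of the subunits, beside 22.1% of all genes, and limma-voom 3, all lower at ZT12. The median log2 fold change in that comparison was -0.50, beside 0.69 for the mitochondrial messenger RNAs. Ndufa13 had -1.67 ± 0.54 and Ndufs7, also of complex I, -1.49 ± 0.49 (SE, adjusted p = 0.0623 and 0.0687, edgeR). Without ZT12-EX replicate 4, which is in neither group but bears on the estimate of spread, edgeR called 29 of the 75, all lower, and 21.2% of all genes. Some marker lists of cell types also had negative medians for time in sedentary mice: -0.59 for cardiomyocytes (6 of 8 negative), -0.52 for endothelial cells (5 of 5) and -0.65 for red blood cells (5 of 5). The remaining lists had positive medians: 0.11 for fibroblasts (3 of 5 positive), 0.15 for adipocytes (5 of 6) and 0.07 for fast skeletal muscle (8 of 12). Their part in the result was not tested.

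After the run at ZT12 the median of the nuclear subunits depended on 1 library. Over all libraries it was 0.39, beside -1.04 for the mitochondrial messenger RNAs, with Cox7a1, the heart and muscle form of a complex IV subunit, at 1.28 ± 0.48 and Ndufa3 of complex I at 1.22 ± 0.47 (SE, not called). Without ZT12-EX replicate 4 it was -0.13, beside -0.87 for the mitochondrial messenger RNAs. That library had the highest summed level of these subunits, 15.8% of its non-mitochondrial counts, and the lowest mitochondrial share.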

How the data were processed

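Gene counts were used as deposited, 1 file per heart. Per the submitters' processing notes, the authors used Trimmomatic 0.39, HISAT2 2.2.1, Subread featureCounts 2.0.1 and GRCm39; per the labels' protocols RNA was isolated with Trizol, poly-A selected and made into TruSeq libraries. The titles number the hearts as biological replicates.

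Members, lists and comparisons were chosen with earlier results of these data known. Each comparison was fitted with edgeR 4.0.16 (filterByExpr, TMM, robust quasi-likelihood fit, group plus flow cell, 24 libraries, 19 residual degrees of freedom) in R 4.3.3, with Benjamini-Hochberg adjustment over the 15294 genes tested and a threshold of 0.05; the script was tested on simulated data. Alternatives used DESeq2 1.42.0, limma 3.58.1 (voom), other scalings, filters, subsets and GC offsets, which could be fitted for 15288 genes. Shares are percentages of all counts in a library. The reference was GENCODE M21 on GRCm38, another build than the files', so only its sequences, order and strand were used. Values are printed per library for members past the threshold, both rRNAs and the 2 tRNAs with most counts, and otherwise as ranges or means. From the lists of nuclear genes, examples have the smallest p-values. Genes with no symbol, 257 of 52350, held 0.00128% of counts.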

Additional observations from a re-analysis of the deposited data

Results flagged for a closer look

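In 72 sets of 6 values (the mitochondrial share, the rRNA share, the rRNA ratio and the share of the mitochondrial counts of each messenger RNA and rRNA, by group), 13 had a sample whose gap to the nearest other exceeded 0.625 of the group's range. Chance alone flags about 1 set in 20 where the 6 values come from 1 normal distribution. These sets pool both flow cells and many are parts of the same total, so that rate need not hold here.

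Of the flagged sets, 7 were flagged for ZT12-EX replicate 4. The rRNAs of this library held 31.5% of the mitochondrial counts (next 9.33%), mt-Rnr1 10.9%, mt-Rnr2 20.5%, mt-Co2 3.11% and mt-Nd6 2.37%, each the highest of the group. Its mt-Co1, at 16.7%, and mt-Nd1, at 6.76%, were the lowest. Cardiomyocyte markers were 12.5% of the non-mitochondrial counts there, the highest of all libraries.

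The other flags were single members in single libraries. mt-Atp8 held 0.116% of the mitochondrial counts in ZT12-SED replicate 2 and 0.0908% in ZT0-SED replicate 1. mt-Nd4l held 0.0261% in ZT12-EX replicate 2 and 0.0733% in ZT0-EX replicate 3. mt-Atp6 held 0.667% in ZT12-SED replicate 1, and mt-Cytb 20.4% in ZT0-SED replicate 3.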

How the results depend on the processing

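The calls after the run at ZT12 and for time in sedentary mice depend on the setting; in the other 3 comparisons no alternative called a member. After the run at ZT12 (1 member called), DESeq2 called 4, and 0 were called with library totals without TMM, no flow cell term, either flow cell alone, the compared groups alone, GC offsets, nuclear copies summed in, without the 3 libraries of extreme share or without the 6 with skeletal muscle transcripts. Without these 6 and ZT12-EX replicate 4, 1 was called, mt-Nd6 in place of mt-Co3 (-1.45, adjusted p = 0.0478, edgeR, against -0.79 over all libraries). For time in sedentary mice (2 called), 1 was called with no filter and with nuclear copies summed in, 6 by DESeq2, 18 on flow cell 1 alone, 7 when the 6 libraries that held skeletal muscle transcripts were left out, 14 without these and ZT12-EX replicate 4, and 0 with library totals without TMM, no flow cell term, flow cell 2 alone, the compared groups alone, GC offsets or without the 3 libraries of extreme share. For time in sedentary mice the main fit called 5.2% of all genes, DESeq2 22.1% and flow cell 1 alone 43.5%. That share is not given here for the fits that left out the libraries with skeletal muscle transcripts, in either comparison. Their 7 and 14 members, and the call of mt-Nd6, are not set against it and by themselves show no excess. The cause of the dependence on the setting was not tested. Leaving out each library in turn gave 0 to 1 members after the run at ZT12 and 0 to 6 for time in sedentary mice.

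It is not settled whether equal replicate numbers mark pairs, and the main fit did not use them. Of 36 same-numbered pairs 15 had a correlation over 0.1 (range -0.45 to 0.78), and 13 of 24 libraries correlated best with their own number. How many would do so by chance was not worked out. With the replicate block, 0 members were called after the run at ZT12 and 2 for time in sedentary mice.

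Log2 ratios of mitochondrial shares on flow cell 1 were -0.51 after the run at ZT12 and 0.70 for time in sedentary mice, and -0.93 and 1.19 as mitochondrial counts per 1000 counts of other genes. Nuclear copies were summed in, ZT12-EX replicate 4 was left out with the 6 muscle libraries, and single libraries were left out of the shares after seeing the data. The 9 tRNAs left out of the tests had too few counts.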
